A study of Mus musculus with 4 samples.

Results

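Glutamate receptors and the scaffold proteins beneath them form the receiving side of excitatory synapses, and 35 of their genes were followed in newborn mouse brain with and without CIC (capicua), an HMG-box transcriptional repressor. The genes were chosen by name, as members of the AMPA, kainate, NMDA, delta and metabotropic receptor families, the Dlg, Shank and Homer scaffold families, and the calcium signalling genes Camk2a, Camk2b and Nrgn. Each name matched 1 of the 20793 gene rows (20462 distinct names) of the deposited expression table, which gives FPKM, fragments scaled to transcript length and to the library's mapped fragments. RNA-seq libraries came from brain RNA taken at postnatal day 1, with 2 libraries labelled WT and 2 labelled CIC knockout, each pair lettered A and B. Knockout animals carried Nes-Cre, a Cre recombinase driven by nestin regulatory sequence and active in neural progenitors, with both Cic alleles loxP-flanked (CIClox/lox). The labels of the WT animals conflict: the genotype field gives Nes-Cre with CIC+/+, whereas the titles describe L_L animals without Cre. By the first reading all 4 libraries share the Cre transgene, and by the second they share the floxed alleles. Nothing in the labels says whether each library is its own animal, and p-values therefore reflect no more than library-to-library spread, which may be technical.

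AMPA receptors carry fast excitatory current, kainate receptors modulate it, and NMDA receptors open only when glutamate and depolarisation coincide and then admit calcium. An NMDA receptor joins obligatory GluN1 subunits (Grin1) to GluN2 subunits (Grin2a to Grin2d), and in the rodent forebrain the set of GluN2 subunits changes after birth, from mainly GluN2B, with GluN2D in diencephalon, brainstem and interneurons, towards GluN2A. Metabotropic receptors signal through G proteins. The Dlg proteins hold receptors at the membrane, Shank and Homer proteins link them to the cytoskeleton and to internal calcium stores, and CaM kinase II reads the calcium signal.

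Cic was at 51.3 and 56.4 FPKM in the WT libraries and at 19.1 and 22.2 FPKM in the knockout libraries, so the target gene ran in the direction of the labels (log2 difference -1.34 ± 0.12, SE), although limma's adjusted p was 0.213. Total depth is unknown because the table holds no counts, and column sums ran from 440005 to 449559 FPKM. Knockout B stood apart from the other libraries. Its log2(FPKM + 1) values correlated with those of the others across the 12703 rows tested at r of 0.9645 to 0.9733, against 0.9861 to 0.9941 among the other 3 (a description across genes, which are not replicates). The labelled tissue carried its markers. All 7 pan-neuronal genes listed were among the rows tested and summed to 3089 and 3048 FPKM in WT and to 3011 and 2570 FPKM in knockout A and B. Tubb3 and Stmn2 were the largest parts of these sums. Both knockout libraries lay below WT for 3 of the 7 and above for 0. The 3 were Dcx (241 and 253 FPKM in WT, 228 and 152 in the knockout), Rbfox3 (37.4 and 37.25, 33.6 and 29.9) and Snap25 (133.1 and 136.6, 130.5 and 126.5).

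Markers of brain regions differed between the libraries, some in both knockout libraries and others only in knockout B. All 6 dorsal telencephalon genes listed (Neurod6, Neurod2, Emx1, Tbr1, Bhlhe22 and Fezf2) had lower values in knockout A and B than in WT A or B, with sums of 483 and 497 FPKM in WT, against 361 in knockout A and 226 in B. The 10 thalamus, midbrain and hindbrain genes listed summed to 21.7 and 22.4 FPKM in WT and to 30.2 and 152 FPKM in knockout A and B. Of these, En1, En2, Hoxb2 and Hoxb3 ran from 0 to 0.144 FPKM in both WT libraries and knockout A, and from 1.32 to 5.27 FPKM in knockout B. The 7 cerebellar genes summed to 44.5 and 51.6 FPKM in WT, against 83.4 in knockout A and 174 in B. Sums of the astrocyte list (6 of 6 genes; 160, 156, 175 and 150 FPKM), the oligodendrocyte lineage list (6 of 6; 93.2, 97.9, 101 and 91.7 FPKM) and the striatal and GABAergic list (7 of 8 with a row; 225, 222, 278 and 199 FPKM), each given as WT A, WT B, knockout A and knockout B, differed less. Within the last list the GABAergic genes Gad1 (52.8 and 48.7 FPKM in WT, 77.3 and 70.3 in the knockout), Gad2 (18.5 and 18.5, 22.9 and 27.5) and Slc32a1 (24.5 and 23.2, 39.1 and 27.1) were above WT in both knockout libraries, and the striatal genes Ppp1r1b (38.2 and 39.1, 35.6 and 12.7) and Foxp1 (36.5 and 38.4, 36.1 and 22.1) were below. Dlx1 (29.7 and 28.3, 37.6 and 21.05) and Dlx2 (25.2 and 25.3, 29.25 and 18.2) were above WT in knockout A and below it in B. The choroid plexus list (4 of 4 genes) summed to 148, 484, 965 and 1025 FPKM, and the microglia list (4 of 4) to 38.1, 45.5, 51.9 and 77.6 FPKM. The blood list (3 of 4 with a row) summed to 194, 127, 9.51 and 699 FPKM. Its 2 rows listed at 0 in knockout A were both of the gene Hba-a1. In that library Alas2 (9.25 FPKM, against 8.88 and 5.76 in WT) and Slc4a1 (0.256, against 0.254 and 0.202) were not below WT. The part that tissue composition plays in the values below was not tested. In bulk brain RNA, fewer cells of a type and less RNA per cell cannot be told apart.

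Of the 35 genes, 34 passed the filter of a mean FPKM of 1 or more and were tested. The gene left out was Grin2c, at a mean of 0.607 FPKM. None of the 34 passed limma's test with adjustment over all rows at 0.05. Among all 12703 rows tested, 0.0236% were called higher and 0.0236% lower. At an unadjusted p under 0.05, 2 genes were higher (Grin2d and Grm4, 5.88% of the 34, against 6.61% of all rows) and 3 were lower (Homer1, Grm3 and Grin2b, 8.82%, against 3.54%). Grin2d lay furthest from WT in the upward direction (log2 difference 0.82) and Nrgn in the downward direction (-0.80).

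Most of the genes were nevertheless on the low side in the knockout. The median log2 difference, on the log2(FPKM + 1) scale, was -0.16 over the 34 genes and 0.02 over all rows tested. Of these genes, 26 were below 0 and 8 above, against 5889 and 6814 of all rows. Both knockout values were under both WT values for 14 genes (41.2%, against 21.7% of all rows) and above both for 5 (14.7%, against 27.1%). The low side was carried mainly by knockout B. The median distance from the WT mean was -0.06 for knockout A but -0.26 for knockout B, against 0.01 and 0.03 over all rows. Knockout B was below knockout A for 24 of the 34 genes (70.6%, against 48.3% of all rows). The WT libraries stayed within 0.2 log2 of each other for 32 of the 34 genes, and the knockout libraries for 12. The knockout libraries were further apart over all rows too. Their median gap was 0.29 for the 34 genes and 0.19 over all rows, against 0.04 and 0.07 for the WT libraries.

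How many genes were called turned on knockout A. Without that library, limma called 2 of the 34 higher (5.88%, against 17.9% of all rows) and 16 lower (47.1%, against 16.0%). That fit takes its spread from the WT pair, as if a single knockout library had the same spread, and describes knockout B against WT rather than the genotype. Without knockout B, without WT A and without WT B none of the 34 was called, the lowest adjusted p being 0.115.

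**Figure D1:**
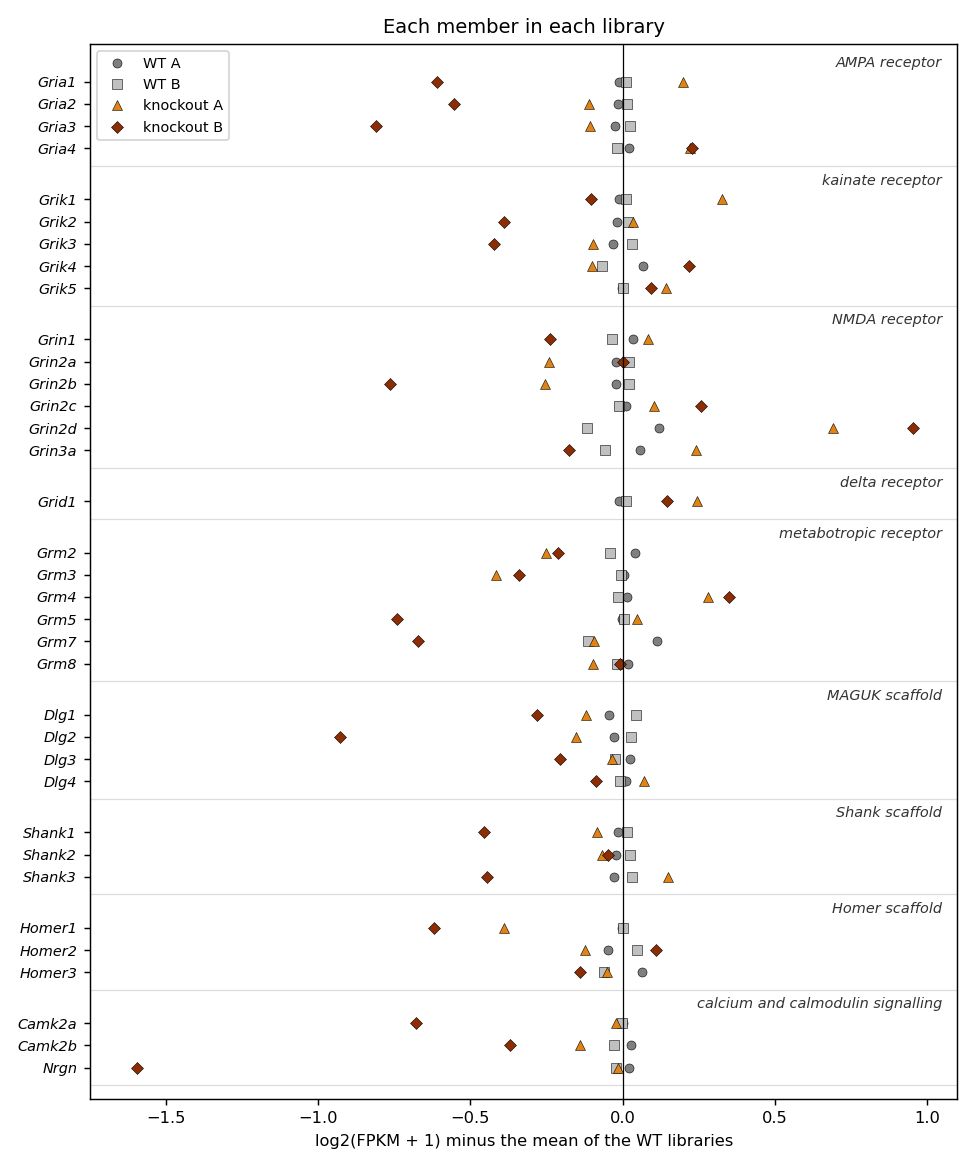
Distance of each of the 35 genes from the mean of the WT libraries, on the log2(FPKM + 1) scale, with 1 symbol per library and genes grouped by family. WT symbols cluster at 0, knockout B lies furthest to the left for most genes, with Nrgn at -1.59, and Grin2d lies to the right in both knockout libraries.

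NMDA receptor genes held the member furthest above WT. Grin2d, encoding GluN2D, a subunit that gives slow-closing channels only weakly blocked by magnesium (mm9, chromosome 7, 53087853 to 53122051), was at 6.57 and 5.42 FPKM in the WT libraries and at 10.3 and 12.5 FPKM in knockout A and B. The groups did not overlap. The means were 5.995 ± 0.808 and 11.4 ± 1.59 FPKM (SD, n = 2 each), a log2 difference of 0.82 ± 0.15 (SE; 95% interval 0.44 to 1.21) with limma's adjusted p of 0.411. Without knockout B the log2 difference was 0.69 and without knockout A it was 0.955. Of the 10 thalamus, midbrain and hindbrain markers, 7 were likewise above WT in both knockout libraries, although Hoxb2 and Gata3 reached only 0.0219 and 0.194 FPKM in knockout A. Of the 10 in knockout A, Tcf7l2 was at 5.17 FPKM (2.14 and 2.34 in WT), Gbx2 at 1.90 (0.816 and 0.728), Otx2 at 2.75 (0.838 and 1.53) and Lhx9 at 3.53 (2.71 and 2.94), while En1, En2, Hoxb2 and Hoxb3 were at or near 0. The GABAergic markers Gad1, Gad2 and Slc32a1 were above WT in both as well, while Dlx1 and Dlx2 were above WT in knockout A and below it in B. The part of these markers in the Grin2d values was not tested.

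Grin2b, encoding GluN2B, the main juvenile forebrain subunit (chromosome 6, 135679823 to 136123529), ran the other way. It was at 11.4 and 11.8 FPKM in WT and at 9.57 and 6.43 FPKM in knockout A and B, with no overlap between the groups. The log2 difference was -0.51 ± 0.19 (SE; 95% interval -1.01 to -0.01), with limma's adjusted p of 0.492. Without knockout A it was -0.76, against -0.25 without knockout B. The ratio of the Grin2d and Grin2b levels, a pair chosen after the values were seen, had opposite signs in the groups. On the log2(FPKM + 1) scale it was -0.71 and -0.99 in WT, against 0.09 in knockout A and 0.86 in B, and without the added 1 it was -0.80 and -1.12, against 0.10 and 0.96.

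The remaining NMDA receptor genes differed less. Grin1, the obligatory subunit, was at 42.8 and 40.8 FPKM in WT, against 44.3 in knockout A and 35.3 in B, and the groups overlapped. Grin2a, the mature forebrain subunit, was near the filter in every library, at 1.11 and 1.17 FPKM in WT and at 0.808 and 1.14 FPKM in knockout A and B (log2 difference -0.12, 95% interval -0.44 to 0.195). Grin2c, a subunit of mature cerebellum, was at 0.516 and 0.494 FPKM in WT, against 0.618 in knockout A and 0.799 in B, and was not tested. Grin3a, encoding GluN3A, which dampens calcium entry in young synapses, was at 17.2 and 15.7 FPKM in WT and at 19.6 and 14.4 FPKM in knockout A and B. Its knockout libraries lay on opposite sides of WT.

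The summed GluN2 level was similar in all 4 libraries and its composition was not. Their summed level was 19.6 and 18.9 FPKM in WT and 21.3 and 20.9 FPKM in the knockout. Grin2b made up 58.2% and 62.5% of that sum in WT, against 45.0% in knockout A and 30.8% in B. Grin2d made up 33.5% and 28.7% in WT, against 48.3% in knockout A and 59.9% in B. Neither the Grin2d share nor the Grin2b share overlapped between the groups. Because these genes hold most of the same sum, their shares mirror each other and restate the levels given above. Grin2a stayed between 3.80% and 6.20% and Grin2c between 2.62% and 3.83%.

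**Figure D2:**
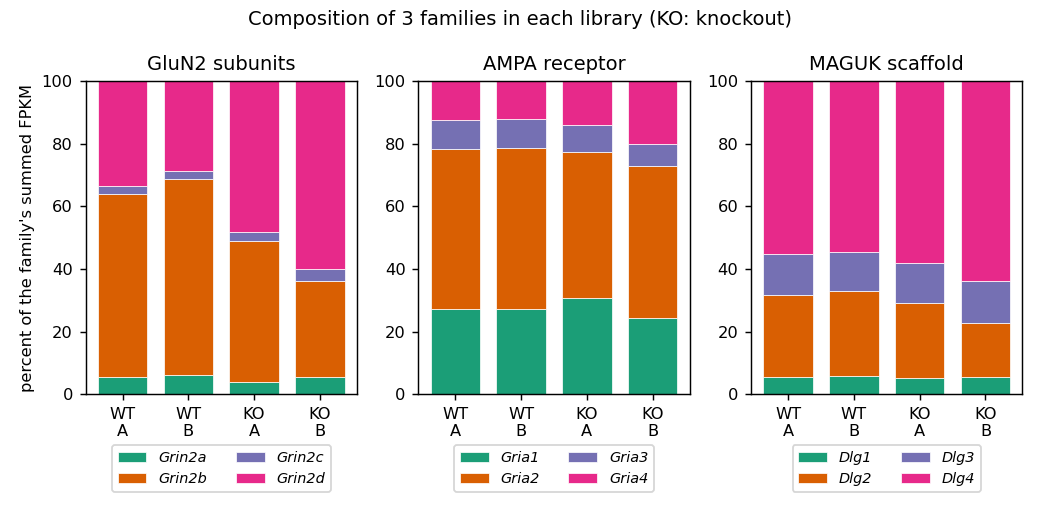
Each bar is 1 library (A or B of WT or knockout, KO), divided into the percentage of the family's summed FPKM taken by each gene, for GluN2 subunits, AMPA receptor subunits and MAGUK (Dlg) scaffolds. The Grin2d band covers 33.5% and 28.7% in WT and 48.3% and 59.9% in the knockout, and the Gria4 and Dlg4 bands are also widest in knockout B.

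Promoters of the receptor and scaffold genes were searched for the octamers bound by CIC. RefSeq's table (build GRCm38.p6) listed 36 promoters of 23 of the 35 genes. The 250 bases before each start were searched on both strands for TGAATGAA, TGAATGGA, TCAATGAA and TCAATGGA, and a promoter counted once whichever of them it held. The motifs and promoters were chosen after the values were seen. A match was present in 3.19% of all 32851 promoters in the table and in 1 of the 36, at 1 of the 4 listed Dlg1 starts, its first base 42 bases before the start, as TGAATGGA on the opposite strand. The Grin2d promoter is shown because it belongs to the gene furthest above WT, and the Dlg1 promoter because it holds that match, in capitals. A match is a run of letters and not a shown binding site, and its lack says only that these letters are not in this window.
Grin2d (chr7:45866682-45866931, minus strand): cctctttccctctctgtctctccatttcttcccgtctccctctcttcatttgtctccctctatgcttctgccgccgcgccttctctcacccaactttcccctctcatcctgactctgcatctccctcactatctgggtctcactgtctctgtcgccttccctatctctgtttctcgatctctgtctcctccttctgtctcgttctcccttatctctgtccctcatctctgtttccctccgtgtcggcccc
Dlg1 (chr16:31695298-31695547, plus strand): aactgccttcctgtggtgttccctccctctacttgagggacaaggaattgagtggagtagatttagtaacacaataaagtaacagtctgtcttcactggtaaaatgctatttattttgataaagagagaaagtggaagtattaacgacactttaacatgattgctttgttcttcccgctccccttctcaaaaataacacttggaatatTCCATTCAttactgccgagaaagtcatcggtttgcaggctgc

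AMPA receptor genes were lower in knockout B except Gria4. Gria2, encoding the subunit that keeps calcium out of the channel once its RNA is edited, was at 87.1 and 89.0 FPKM in WT and at 81.4 and 59.6 FPKM in knockout A and B. Gria3 was at 15.9 and 16.5 FPKM in WT, against 14.9 in knockout A and 8.78 in B. For both genes the groups did not overlap, with log2 differences of -0.33 ± 0.17 and -0.46 ± 0.25 (SE) and adjusted p values of 0.540 and 0.548. Gria1, a subunit moved into synapses by activity, was at 46.4 and 47.2 FPKM in WT and at 53.9 and 30.3 FPKM in knockout A and B. The knockout libraries thus lay on either side of WT, and the log2 difference of -0.205 has a 95% interval from -0.94 to 0.53. Without knockout A the log2 differences of Gria1, Gria2 and Gria3 were -0.61, -0.555 and -0.81, whereas without knockout B they were 0.20, -0.11 and -0.11.

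Gria4, an AMPA subunit prominent early in life and in interneurons, was at 21.4 and 20.8 FPKM in WT and at 24.7 and 24.9 FPKM in the knockout. Its groups did not overlap, and its knockout libraries differed by less than its WT libraries. The log2 difference was 0.22 ± 0.09 (SE; 95% interval -0.01 to 0.46), with limma's adjusted p of 0.4999. The GABAergic markers Gad1, Gad2 and Slc32a1 were above WT in the same libraries, whereas Dlx1 and Dlx2 were so only in knockout A. The part of these markers in the Gria4 values was not tested. Of the summed AMPA receptor level, Gria4 took 12.5% and 11.99% in WT, against 14.1% in knockout A and 20.1% in B. Gria2 was the largest share in every library, at 51.0% and 51.3% in WT and 46.5% and 48.2% in knockout A and B. The sum itself was 171 and 173 FPKM in WT, against 175 in knockout A and 124 in B.

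Among kainate receptor genes Grik3 and Grik5 had both knockout libraries on 1 side of WT. Grik5, which encodes a high-affinity subunit that forms channels only with other subunits, was the highest of the family, at 81.0 and 81.2 FPKM in WT and 89.7 and 86.6 FPKM in the knockout, above WT in both. Its log2 difference was 0.12 ± 0.09 (SE), adjusted p = 0.603. Grik3 was at 25.2 and 26.4 FPKM in WT and at 24.0 and 18.97 FPKM in knockout A and B, below WT in both. Grik2, a widely used principal subunit, was at 20.8 and 21.4 FPKM in WT, against 21.7 in knockout A and 15.9 in B. The log2 differences of Grik2 and Grik3 without knockout A were -0.39 and -0.42. Grik1 was at 7.92 and 8.06 FPKM in WT and at 10.3 and 7.37 FPKM in knockout A and B, and Grik4 was at 6.73 and 6.03 FPKM in WT, against 5.88 in knockout A and 7.58 in B. For both of these genes the knockout libraries fell on opposite sides of WT. The delta receptor gene Grid1, whose protein organises synapses through secreted adhesion partners, was at 18.2 and 18.5 FPKM in WT and at 21.9 and 20.4 FPKM in the knockout, above WT in both (log2 difference 0.195 ± 0.09, adjusted p = 0.531).

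Among metabotropic receptors, Grm3 and Grm4 had an unadjusted p under 0.05 in limma and ran in opposite directions. Grm3, encoding a receptor that inhibits cyclic AMP and is used by neurons and astrocytes (chromosome 5, 9485236 to 9725352), was at 17.1 and 16.9 FPKM in WT and at 12.5 and 13.2 FPKM in the knockout. Its log2 difference was -0.38 ± 0.09 (SE; 95% interval -0.62 to -0.14), with limma's adjusted p of 0.439. It was of like size without knockout B (-0.415) and without knockout A (-0.34). The astrocyte marker sum was 160 and 156 FPKM in WT, against 175 FPKM in knockout A and 150 FPKM in B. Of that list, Aldh1l1 (21.4 and 21.3 FPKM in WT, 25.5 and 25.6 in the knockout), Aqp4 (5.50 and 5.68, 6.885 and 7.56) and Gja1 (31.7 and 27.7, 37.6 and 34.15) were above WT in both knockout libraries. Gfap, Slc1a2 and Slc1a3 overlapped with WT. The part of astrocytes in the Grm3 values was not tested.

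Grm4, a presynaptic receptor of cerebellar granule cells (chromosome 17, 27559333 to 27640249), was at 3.75 and 3.64 FPKM in WT and at 4.71 and 4.99 FPKM in the knockout. The groups did not overlap. The log2 difference was 0.32 ± 0.09 (SE; 95% interval 0.07 to 0.56), with limma's adjusted p of 0.470, and without knockout A it was 0.35. The cerebellar marker sum was also higher in both knockout libraries. In knockout A, Zic1 (28.6 FPKM), Zic2 (21.9), Zic4 (8.16) and Cbln1 (23.4) were above both WT libraries. Barhl1 (0.0835 FPKM, against 0.0114 and 0.524 in WT), Pcp2 (1.31, against 1.07 and 2.19) and Atoh1 (0, against 0 and 0.0412) were not. The part of these markers in the Grm4 values was not tested.

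Grm2, a relative of Grm3 that also inhibits cyclic AMP, was at 13.7 and 12.9 FPKM in WT and at 11.02 and 11.3 FPKM in the knockout, below WT in both (log2 difference -0.23 ± 0.09, adjusted p = 0.4999). Grm5, which releases internal calcium and binds Homer, was at 34.5 and 34.7 FPKM in WT and at 35.8 and 20.3 FPKM in knockout A and B. Knockout A was slightly above both WT libraries (0.05 on the log2 scale) and knockout B well below them (-0.74). Grm7, a presynaptic receptor of low glutamate affinity, was at 10.3 and 8.67 FPKM in WT, against 8.80 in knockout A and 5.56 in B. Without knockout A the log2 differences of Grm5 and Grm7 were -0.74 and -0.67. Grm8 stayed between 2.07 and 2.33 FPKM in all 4 libraries. The Grm3 promoter is printed because this receptor gene had the lowest unadjusted p in limma among those below WT. It held none of the octamers.
Grm3 (chr5:9725353-9725602, minus strand): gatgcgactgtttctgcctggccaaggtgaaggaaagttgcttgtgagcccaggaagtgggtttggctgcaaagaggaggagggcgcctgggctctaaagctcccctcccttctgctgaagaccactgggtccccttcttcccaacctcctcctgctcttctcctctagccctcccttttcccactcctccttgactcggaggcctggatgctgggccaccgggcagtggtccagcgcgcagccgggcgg

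The 4 Dlg scaffold genes (MAGUK proteins) ranged from well below WT to level with it. Dlg2 (chromosome 7, 98239296 to 99597756), which binds NMDA receptors and potassium channels, was at 60.95 and 63.3 FPKM in WT and at 55.7 and 32.2 FPKM in knockout A and B. Both knockout libraries lay below WT. The log2 difference was -0.54 ± 0.27 (SE; 95% interval -1.25 to 0.17), adjusted p = 0.537. It was -0.15 without knockout B and -0.93 without knockout A.

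Dlg4, the main scaffold of mature excitatory synapses, was close to its WT level. It was at 129 and 128 FPKM in WT, against 135 in knockout A and 121 in B, with a log2 difference of -0.01 ± 0.10 (SE; 95% interval -0.28 to 0.26) whose sign turned without WT A or without knockout B. Dlg3, whose protein is associated with young neurons, was at 30.7 and 29.5 FPKM in WT and at 29.4 and 25.98 FPKM in knockout A and B. Its RNA level was thus well below that of Dlg4 in every library. Dlg1, which carries receptors through the secretory route, was at 12.9 and 13.8 FPKM in WT, against 12.2 in knockout A and 10.8 in B. Dlg1 and Dlg3 lay below WT in both knockout libraries, with log2 differences of -0.20 ± 0.11 and -0.12 ± 0.11 and adjusted p values of 0.547 and 0.648. In the summed Dlg level, Dlg2 took 26.1% and 27.0% in WT and 23.97% and 16.9% in knockout A and B, and Dlg4 took 55.3% and 54.5% in WT, against 58.1% in knockout A and 63.7% in B.

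Homer1 was the scaffold gene furthest from WT relative to its error. Homer1 ties metabotropic receptors to Shank and to internal calcium stores, and its gene also makes a short activity-induced form, which the gene-level FPKM does not separate (chromosome 13, 94074450 to 94174917). It was at 21.4 and 21.5 FPKM in WT and at 16.2 and 13.6 FPKM in knockout A and B. The means were 21.5 ± 0.0523 and 14.9 ± 1.78 FPKM (SD, n = 2 each), the groups did not overlap, and the log2 difference was -0.50 ± 0.12 (SE; 95% interval -0.81 to -0.198) with limma's adjusted p of 0.424. The difference was -0.39 without knockout B and -0.62 without knockout A.

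The other Homer genes stayed near WT. Homer2 was at 5.34 and 5.78 FPKM in WT, against 5.01 in knockout A and 6.07 in B, on either side of WT. Homer3, a form abundant in cerebellar Purkinje cells, was at 10.8 and 9.83 FPKM in WT and at 9.92 and 9.27 FPKM in knockout A and B, and its groups overlapped. Homer1 took 57.0% and 57.96% of the summed Homer level in WT, against 51.98% in knockout A and 47.1% in B.

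The Homer1 promoter held the core of the cyclic AMP response element, TGACG, at 3 places, beginning 56, 40 and 14 bases before 1 of its 2 listed starts. That core, searched on both strands and chosen after the values were seen, was present in 17.8% of all promoters and in 5 of the 36 promoters of these genes (Dlg3, Dlg4, Grin1, Grm8 and Homer1). Capitals mark the matches in the Homer1 promoter, which is shown as that of the scaffold gene furthest below WT relative to its error.
Homer1 (chr13:93303507-93303756, plus strand): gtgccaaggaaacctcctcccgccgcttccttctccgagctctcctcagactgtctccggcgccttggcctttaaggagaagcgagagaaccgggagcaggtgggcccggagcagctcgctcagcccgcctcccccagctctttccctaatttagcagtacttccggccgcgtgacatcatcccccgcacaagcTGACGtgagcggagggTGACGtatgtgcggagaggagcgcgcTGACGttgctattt

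Shank proteins form a deep layer of the postsynaptic scaffold. Shank1 was at 32.1 and 32.7 FPKM in WT, against 30.5 in knockout A and 23.3 in B, below WT in both, with a log2 difference of -0.27 ± 0.15 (SE) and an adjusted p of 0.552. Shank3 was at 13.8 and 14.4 FPKM in WT and at 15.8 and 10.1 FPKM in knockout A and B, on either side of WT. Shank2 was at 17.3 and 17.9 FPKM in WT and at 16.7 and 16.98 FPKM in the knockout. Its knockout libraries were close to each other and just under WT (log2 difference -0.06, 95% interval -0.29 to 0.18). Without knockout A the log2 differences of Shank1 and Shank3 were -0.455 and -0.445.

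Neurogranin showed the widest gap between the knockout libraries. Nrgn, whose protein holds calmodulin in forebrain projection neurons (chromosome 9, 37352078 to 37360330), was at 143 and 139 FPKM in WT, against 140 in knockout A and 46.1 in B. Knockout A lay between the WT libraries, so the log2 difference of -0.80 ± 0.53 (SE; 95% interval -2.19 to 0.58) comes from knockout B. Limma's adjusted p was 0.576, and the log2 difference without knockout A was -1.59. The vesicular glutamate transporter genes of forebrain and of deeper brain regions divided in the same library: Slc17a7 was at 45.4 and 50.3 FPKM in WT and at 42.2 and 10.4 FPKM in knockout A and B, and Slc17a6 at 15.2, 14.5, 16.6 and 42.1 FPKM.

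CaM kinase II is a holoenzyme of alpha and beta subunits in neurons, with beta made earlier and alpha later in development. Camk2b was at 144 and 138 FPKM in WT, against 128 in knockout A and 109 in B. Camk2a was at 35.2 and 35.1 FPKM in WT and at 34.6 and 21.6 FPKM in knockout A and B. Both genes lay below WT in both knockout libraries, Camk2a only slightly so in knockout A. The log2 differences were -0.26 ± 0.12 and -0.35 ± 0.23 (SE), with limma's adjusted p values of 0.530 and 0.577. Without knockout A they were -0.37 and -0.68.

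**Figure D3:**
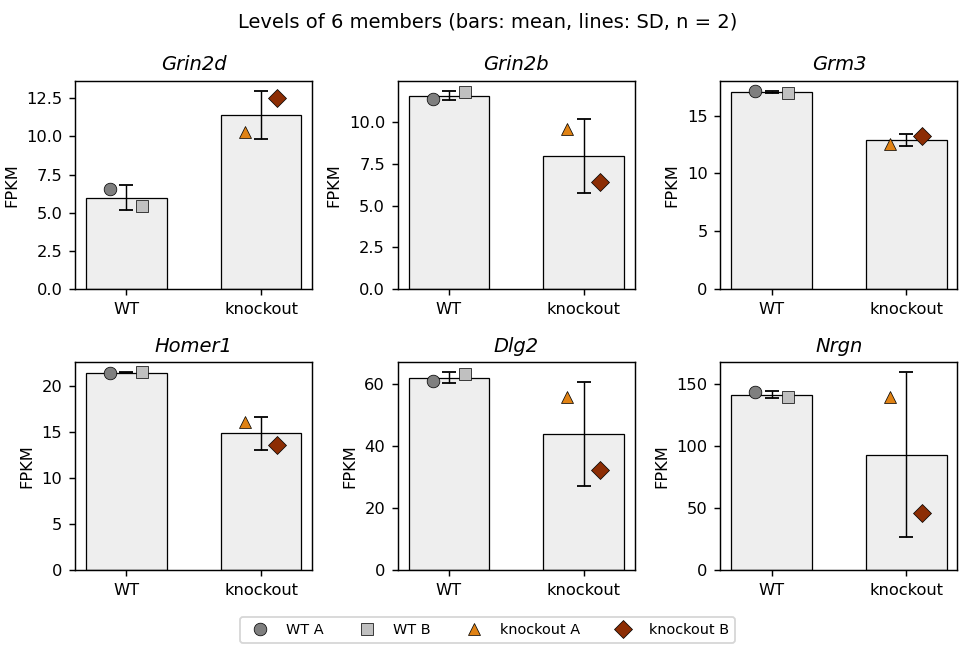
FPKM of 6 genes in each library, with bars for the mean of 2 libraries and lines for the SD. The groups do not overlap except for Nrgn, and for Dlg2 and Nrgn knockout B lies far below knockout A (for Nrgn 46.1 against 140 FPKM).

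Juvenile and mature forms were set side by side as log2 ratios per library. They are a description and were not tested. An exact permutation test of a single value with 2 against 2 libraries cannot give a two-sided p below 0.333. The Grin2a to Grin2b ratio was -2.56 in both WT libraries, against -2.55 in knockout A and -1.79 in knockout B, on the log2(FPKM + 1) scale. Because Grin2a is near 1 FPKM, the added 1 weighs on this ratio, and without it the values were -3.36 and -3.33 for WT, -3.57 for knockout A and -2.49 for knockout B. On that scale the knockout libraries lay on either side of WT. The Dlg4 to Dlg3 ratio was 2.04 and 2.07 in WT and 2.16 and 2.18 in the knockout, a small difference of 0.11 that both knockout libraries share. The Camk2a to Camk2b ratio was -1.999 and -1.94 in WT, against -1.85 in knockout A and -2.28 in B, on either side of WT.

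Levels per length spanned a wide range. In WT, Nrgn (141 ± 2.95 FPKM), Camk2b (141 ± 3.96) and Dlg4 (129 ± 1.22) were the highest, and the first pair did not differ beyond their spread. The knockout libraries differed in order. Nrgn ranked 1 of 35 in knockout A, ahead of Dlg4 and Camk2b, and 5 in knockout B, behind Dlg4, Camk2b, Grik5 and Gria2. Grin2d ranked 30 and 31 in the WT libraries, 26 in knockout A and 21 in knockout B. Homer1 ranked 14 in both WT libraries and 19 in both knockout libraries. Grm8, Grin2a and Grin2c were the lowest in all 4 libraries.

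**Figure D4:**
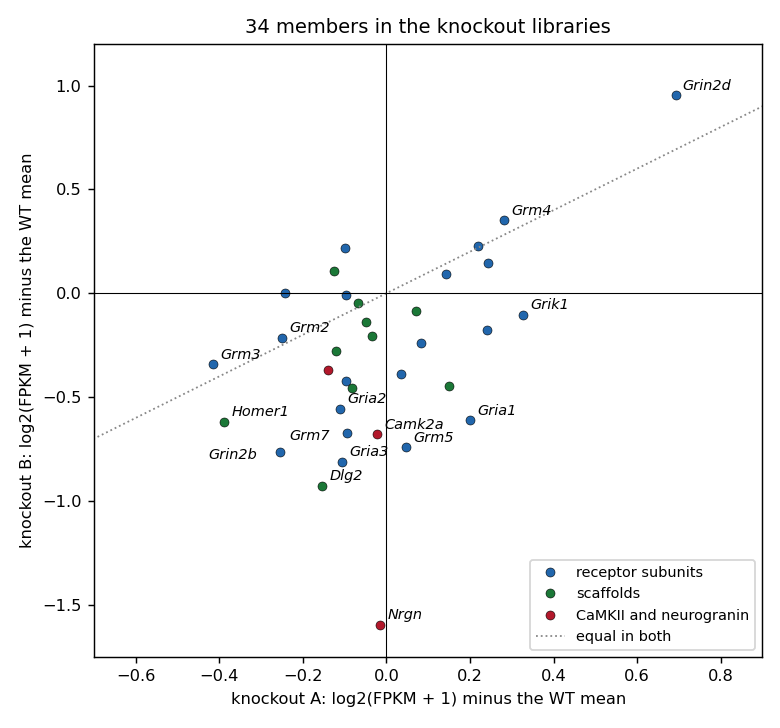
Distance from the WT mean in knockout A (horizontal) and knockout B (vertical) for the 34 genes tested, on the log2(FPKM + 1) scale, with the dotted line where both are equal. Most points lie below the line. Grm4, Grm2 and Grm3 lie near it, and Nrgn is at -0.015 and -1.59. Because both axes share the WT libraries, no correlation is given.

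Other genes of the glutamate synapse were taken from a list of 54 auxiliary subunits, adaptors, calcium signalling genes, adhesion molecules and transporters, of which 53 had a row and 50 were tested. None passed the test over all rows in either direction. At an unadjusted p under 0.05, 4 were higher and 4 lower (8% each, against 6.61% and 3.54% of all rows). The list median was -0.11, with -0.23 in knockout B and 0.01 in knockout A. Both knockout libraries lay below WT for 18 genes (36%, against 21.7% of all rows) and above for 12 (24%, against 27.1%).

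Adaptors of the postsynaptic density were the lowest of these groups, with a median log2 difference of -0.27 over 15 genes tested, of which 9 lay below WT in both knockout libraries (60%, against 21.7% of all rows). Their median distance from WT was -0.08 for knockout A but -0.38 for knockout B. Cnksr2, a scaffold that binds Dlg4 (12.5 and 12.3 FPKM in WT, 8.60 and 6.95 in the knockout; log2 difference -0.61 ± 0.13, adjusted p = 0.417), was furthest below WT among them. Baiap2, which links the scaffold to actin, lay below WT by a log2 difference of -0.36 ± 0.10 (SE), Sipa1l1, a Rap GTPase regulator, by -0.32 ± 0.12, and Lrrc7, an adaptor that binds CaM kinase II, by -0.30 ± 0.11. Dlgap3, which bridges Dlg4 and Shank, was instead higher, at 27.6 and 27.3 FPKM in WT and 35.9 and 35.3 FPKM in the knockout (0.36 ± 0.09, adjusted p = 0.439). Iqsec1, an exchange factor for ARF GTPases, was higher by 0.42 ± 0.15.

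Camk2d, a CaM kinase II gene used broadly outside projection neurons as well, had the lowest unadjusted p of the list in limma. It was at 16.7 and 15.7 FPKM in WT and at 25.4 and 29.2 FPKM in the knockout, a log2 difference of 0.72 ± 0.11 (SE; adjusted p = 0.411). It lay above WT in both knockout libraries, while Camk2a and Camk2b lay below. Camk2g (50.8 and 48.8 FPKM in WT, 52.0 and 69.7 in knockout A and B) was also above WT in both, only slightly so in knockout A. Nptxr, a pentraxin receptor, was at 1.76 and 0.810 FPKM in WT and at 3.98 and 2.43 FPKM in the knockout. Of the 12 AMPA and kainate auxiliary subunits and 5 glutamate transporters tested, none had an unadjusted p under 0.05.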

How the data were processed

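Brain RNA of postnatal day 1 was measured in 2 WT and 2 CIC knockout libraries, grouped by the description field. The deposited values are FPKM per gene row. The unit was inferred from the field names and from Cufflinks in the submitters' processing notes (bcl2fastq 2.17, cutadapt, TopHat2 2.0.11, Cufflinks 2.1.1, build mm9, with no order or settings). Gene positions were taken from the deposited table (mm9) and written 1-based. The sources used here do not say how RNA was selected or whether strand was kept.

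FPKM are not counts, so log2(FPKM + 1) was tested in limma 3.58.1 (R 4.3.3; lmFit and eBayes, trend and robust off, no covariate, two-sided) on the 12703 rows with a mean FPKM of 1 or more. P-values were Benjamini-Hochberg adjusted over all these rows, with a threshold of 0.05. The fit had 2 residual and 2.63 prior degrees of freedom. Log2 differences are knockout minus WT and understate the change of low genes. The calculation was run on simulated data with the same spread in both groups. Because the knockout libraries differ more from each other here, that run checks the direction of calls and not their error rate. All 35 members are named. Of the other synapse genes, those with an unadjusted p under 0.05 are named. A few marker and synapse genes are not reported here, and list counts and sums leave them out. The members, lists and tests were chosen with earlier results of these data known, so they are not independent evidence. Alternatives covered pseudocount, filter, scaling, limma's trend option, rows listed at 0, the replicate letter as a block and leaving out each library. Total depth is unknown. Relative to WT A, depth read from the commonest ratio among rows under 0.15 FPKM was 1.21 in WT B, 1.22 in knockout A and 1.03 in knockout B. Promoter sequences are RefSeq's, in GRCm38.p6, and were not joined to mm9 coordinates.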

Additional observations from a re-analysis of the deposited data

How the results depend on the processing

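Over the 12 alternatives, 372 of 405 recomputed log2 differences of the 34 genes kept their direction and their side of the threshold, 18 were newly called and 15 changed sign. The sign changes and new calls all came from leaving out a library, the 18 calls from leaving out knockout A, where by construction a lone knockout library is given the spread of the WT pair. With a library left out, the genes called higher over all rows ranged from 1 to 2269 and those called lower from 3 to 2036, members called higher from 0 to 2 and called lower from 0 to 16, and the median of the members from -0.259 (without knockout A) to -0.0587 (without knockout B). Over all rows, 1 gene was called higher with a pseudocount of 0.1 and 1 with no filter, and 0 higher and 0 lower without 13 rows that one library lists at 0 while some other has at least 10 FPKM. None of those 13 is a member. The filters, limma's trend option, the replicate block and leaving out these 13 rows could not alter any log2 difference. For those alternatives only the side of the threshold could have changed, so their part of the 372 says nothing about direction.

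Sign changed within these ranges: Gria1 -0.61 to 0.20, Grik1 -0.103 to 0.327, Grik2 -0.389 to 0.0356, Grik4 -0.0998 to 0.22, Grin1 -0.238 to 0.0824, Grin2a -0.242 to 0.00101, Grin3a -0.175 to 0.24, Grm5 -0.741 to 0.047, Dlg4 -0.0859 to 0.0713, Shank3 -0.445 to 0.149 and Homer2 -0.124 to 0.109. Without knockout B the Grin2a to Grin2b difference was 0.0116 and the Camk2a to Camk2b difference 0.118, against 0.388 and -0.0943 with all libraries. With no pseudocount, an alternative chosen after seeing the data, these differences were 0.319 and -0.105, and that of Dlg4 to Dlg3 was 0.116. At a mean FPKM of 5 or more Grin2a was filtered out and its ratio could not be computed. The letters A and B are not stated to pair the libraries, and their deviations correlated at -0.0135. With the letter as a replicate block, 4 genes were called higher and 3 lower over all rows, and no member was. With 2 libraries a group, small differences were not detectable, and even the Cic difference of -1.34 was not called (limma's adjusted p = 0.213). The causes of these shifts were not tested.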
